A study of Mus musculus with 6 samples.

Results

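Mitochondrial ribosomal protein genes were examined in infarct tissue of mice that lack the transcription factor Irf3 and of wild-type mice. The members were all rows of the deposited expression table whose symbol begins with Mrpl or Mrps and a number, which gave 78 of 12969 rows. RNA-seq was run on hearts of male mice about 12 weeks old, 4 days after permanent suture ligation of the left anterior coronary artery. The 3 libraries of the first group came from mice of genotype IRF3-/- (Irf3KO below) and the 3 of the second from wild-type mice of strain C57BL/6, and every mouse in both groups had an infarct, so the comparison is between genotypes within injured tissue. For the knockout mice the sources used here name neither the strain nor the deleted part of Irf3. Because the labels do not tell whether samples of a group are separate animals, the p-values reflect sample-to-sample spread, which may be technical.

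Mitochondria keep a small genome that encodes core subunits of the respiratory chain, and they translate it on ribosomes of their own. The RNA of these ribosomes comes from the mitochondrial genome, whereas all their proteins are encoded in the nucleus, made in the cytosol and imported. The small subunit binds the messenger RNA and decodes it, and the large subunit joins the amino acids and anchors the ribosome at the inner membrane. Heart muscle, which depends on respiration, is rich in mitochondria.

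Of the 78 rows, 74 were protein-coding genes and 4 were processed pseudogenes (Mrpl23-ps1, Mrpl48-ps, Mrps36-ps1 and Mrps36-ps2). Ribosomal subunits accounted for 73 of the genes, 45 with the Mrpl and 28 with the Mrps prefix, and 2 of the latter, Mrps30 and Mrps18a, name proteins that sit in the large subunit. The remaining gene, Mrps36, carries the family name, but its protein is known as a part of the 2-oxoglutarate dehydrogenase complex of the citric acid cycle. All 78 rows had a mean of at least 1 RPKM (reads scaled to gene length in kilobases and to library depth) and were tested. The depth read from the values was 14.8 to 61.9 M reads in genes per library, and a member rested on 12 to 6515 reads in a library, with Mrps36-ps2 the thinnest.

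Irf3KO replicate 2 stood apart from the other libraries. It correlated with the remaining 5 at a mean of 0.907, where each of those reached 0.941 to 0.966, and its median-of-ratios factor was 0.817 where theirs were 1.024 to 1.085. Lars2, a mitochondrial tRNA synthetase gene, took 2.47% of its reads and 0.131% to 0.696% of those of the other libraries. Fold changes that moved by more than 1.5 times when this library was left out are given both ways. Irf3 itself was read at 7.4, 8.74 and 7.68 RPKM in Irf3KO replicates 1 to 3 while the wild type had 13.76, 13.87 and 11.56 RPKM (log2 fold change -0.65 ± 0.18, SE, n = 3 per group, limma adjusted p = 0.344).

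No mitochondrial ribosomal protein row was called between the genotypes, but most of them stood higher in the knockout. On log2(RPKM + 1), 71 of the 78 rows had a fold change above 0, where 40.7% of all 12913 genes tested did, and their median log2 fold change was 0.29, where the median of all genes was -0.09. None of the 78 passed the test across all genes (limma, Benjamini-Hochberg adjusted p under 0.05), against 0.503% of all genes, and the smallest adjusted p among them was 0.434. At an unadjusted p under 0.05 there were 8 of 78, or 10.3%, beside 8.4% of all genes, so by that count the members were close to the rest of the table. The count moved with the libraries, for the members as for the table. It was 20 of 78 rows without Irf3KO replicate 1 (19.1% of all genes), 11 of 78 without replicate 2 (7.79%) and 6 of 78 without replicate 3 (7.0%). It was 5 of 78 rows without wild-type replicate 1 (7.1% of all genes), 1 of 78 without replicate 2 (4.03%) and 5 of 78 without replicate 3 (7.64%). No member was called in any of these fits (limma). Adjusted p-values of single genes rest on limma's model, since 3 libraries against 3 cannot give an exact permutation p below 0.1.

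The separation of the groups was small and repeated across members. In 25 rows, or 32.1%, every Irf3KO library lay above every wild-type library, which 6.61% of all genes did, and in 2 rows, or 2.56%, every Irf3KO library lay below, which 11.8% of all genes did. With Irf3KO replicate 2 left out, 33 rows were fully above (10.9% of all genes) and 3 fully below (13.1% of all genes), and all 25 of the first count were among the 33. Without that library 68 rows had a fold change above 0, where 52.1% of all genes did, the median of the members was 0.21 and that of all genes 0.01. In that fit none of the 78 rows was called (0.743% of all genes were), and 11, or 14.1%, had an unadjusted limma p under 0.05, beside 7.79% of all genes. The rows share the same 6 libraries and are not independent of each other.

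Summed over the family, the same order appeared. The 78 rows took 0.266%, 0.367% and 0.271% of the reads in genes in Irf3KO replicates 1 to 3 and 0.22%, 0.23% and 0.254% in the wild-type replicates. Relative to the wild-type mean, the median of the members stood at 0.17, 0.45 and 0.21 in the Irf3KO libraries and at -0.08, -0.03 and 0.08 in the wild-type libraries. All 3 Irf3KO medians therefore lay above all 3 wild-type medians, and replicate 2 was the highest. As a share of the summed RPKM, in which short genes weigh as much as long ones, the members took 0.468%, 0.37% and 0.466% in Irf3KO and 0.352%, 0.441% and 0.454% in the wild type, and there replicate 2 lay among the wild-type values.

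**Figure D1:**
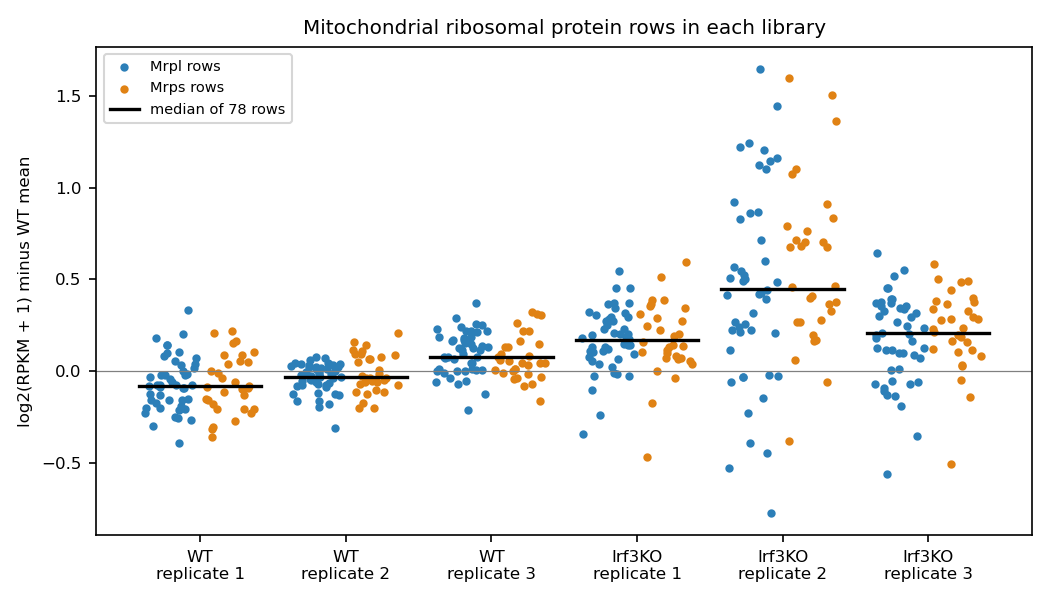
Each point is 1 of the 78 rows in 1 library, as log2(RPKM + 1) minus the mean of the 3 wild-type libraries, and black lines are medians. The medians are -0.08, -0.03 and 0.08 in the wild type and 0.17, 0.45 and 0.21 in Irf3KO, and the rows of Irf3KO replicate 2 spread most widely.

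The summed levels of Mrpl and Mrps genes kept a nearly constant ratio. These prefixes only approximate the subunits, since the Mrps sum includes Mrps30 and Mrps18a and subunit proteins with other symbols are left out. The summed RPKM of the Mrpl genes was 2.41, 2.41 and 2.4 times that of the Mrps genes in Irf3KO replicates 1 to 3, and 2.37, 2.33 and 2.46 times in the wild type, so the ranges overlapped. The median log2 fold change was 0.26 for the 45 Mrpl genes, 40 of them above 0, and 0.29 for the 28 Mrps genes, 26 of them above 0. Without Irf3KO replicate 2 the medians were 0.17 and 0.21, with 37 and 26 genes above 0. Proteins inherited from the bacterial ribosome and proteins that only mitochondrial ribosomes have were also compared, with Mrps18a and Mrps18b, extra copies of S18, counted among the latter. Of the 29 large subunit genes with a bacterial counterpart, 24 were above 0 (median 0.24, and 0.15 with 21 above 0 without Irf3KO replicate 2), and of the 16 such small subunit genes 14 were above 0 (median 0.27). All 18 mitochondria-specific genes of the large subunit (median 0.33) and all 10 of the small subunit (median 0.34) had values above 0, and the same 28 were above 0 without Irf3KO replicate 2 (medians 0.21 and 0.24). The 7 values below 0 thus all belonged to proteins with bacterial counterparts, a difference between classes for which no test was made.

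**Figure D2:**
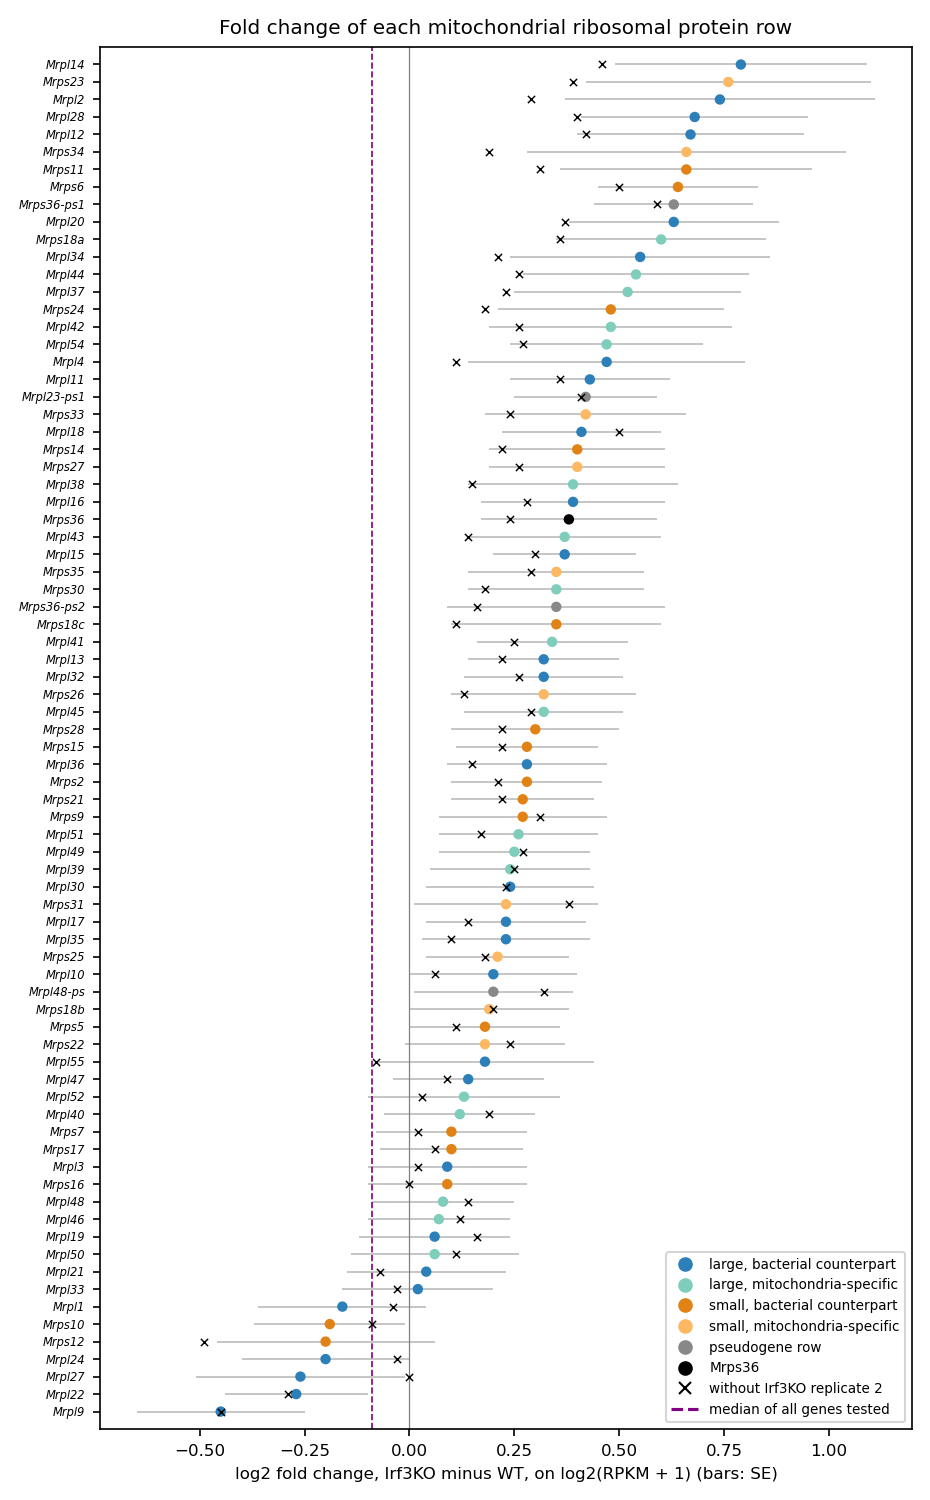
Log2 fold change of each row, Irf3KO minus wild type on log2(RPKM + 1), with its SE (n = 3 per group) and, as crosses, the value without Irf3KO replicate 2. Of the 78 circles 71 lie above 0, the crosses lie mostly closer to 0, and the dashed line marks the median of all genes at -0.09.

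Among small subunit proteins, Mrps6 had the smallest p of the family. It encodes the mitochondrial counterpart of bacterial ribosomal protein S6, at the side of the small subunit. Its level was 11.82, 15.89 and 11.65 RPKM in Irf3KO replicates 1 to 3 and 7.76, 8.41 and 7.80 RPKM in the wild type. The groups did not overlap, and the wild-type libraries lay close together. The log2 fold change was 0.64 ± 0.19 (SE, n = 3 per group, limma adjusted p = 0.434). Leaving out Irf3KO replicate 2 gave 0.50 ± 0.12 (limma adjusted p = 0.248). Mrps6 shares exon sequence on its own strand with Slc5a3, the myo-inositol transporter gene, in the GENCODE annotation, and reads in the shared part cannot be assigned to one of them from these values. Slc5a3 differed in the other direction, at 1.25, 0.29 and 1.24 RPKM in Irf3KO against 1.52, 1.81 and 1.5 RPKM in the wild type (log2 fold change -0.48 ± 0.24, limma adjusted p = 0.556; -0.22 ± 0.13 without Irf3KO replicate 2).

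Mrps23, a mitochondria-specific protein of the small subunit, was among the most abundant members. It stood at 63.00, 141.72 and 67.46 RPKM in Irf3KO while the wild type had 38.30, 51.22 and 61.21 RPKM. The groups did not overlap, although the lowest knockout and the highest wild-type library lay within 2 RPKM of each other. Its log2 fold change was 0.76 ± 0.34 (adjusted p = 0.556) and 0.39 ± 0.22 without Irf3KO replicate 2.

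Mrps12, the counterpart of bacterial S12 at the decoding site, differed in direction between the knockout libraries. Its level was 15.60, 28.81 and 15.17 RPKM in Irf3KO replicates 1 to 3 and 23.43, 20.12 and 22.51 RPKM in the wild type. Replicate 2 was the highest of all 6 libraries, and the other knockout libraries were the lowest. The fold change was -0.20 ± 0.26 over all libraries and -0.49 ± 0.14 without replicate 2 (limma adjusted p = 0.346). Sars2, the mitochondrial seryl-tRNA synthetase gene, starts back to back with Mrps12 on the opposite strand. It stood at 5.45, 12.16 and 6.97 RPKM in Irf3KO against 5.07, 4.29 and 4.93 RPKM in the wild type, so this pair of genes differed in direction in replicates 1 and 3 and shared the high value in replicate 2. Mrps12 was singled out after its values were seen, as were Mrpl23-ps1, Mrps34 and Mrpl30 below.

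The Mrps18 copies, which descend from bacterial S18, were read at unequal levels. Mrps18a, the copy that sits in the large subunit, stood at 10.88, 20.81 and 13.23 RPKM in Irf3KO and 8.61, 9.19 and 9.71 RPKM in the wild type, with no overlap (log2 fold change 0.60 ± 0.25, limma adjusted p = 0.556). Mrps18b stood at 5.99, 6.22 and 6.85 RPKM against 4.59, 6.19 and 5.66 RPKM, where the ranges overlapped (0.19 ± 0.19). Mrps18c was the most abundant copy in all 6 libraries, at 21.74, 35.86 and 20.82 RPKM against 22.99, 18.87 and 17.44 RPKM, with overlapping ranges (0.35 ± 0.25). Without Irf3KO replicate 2 the values of Mrps18a, Mrps18b and Mrps18c were 0.36 ± 0.14, 0.20 ± 0.15 and 0.11 ± 0.16.

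Several large subunit genes were separated between the groups. Mrpl14, the counterpart of bacterial L14 at the interface between the subunits, was at 29.49, 62.97 and 33.56 RPKM in Irf3KO while the wild type had 25.01, 18 and 25.41 RPKM. The groups did not overlap, and replicate 2 was far above the other knockout libraries. Its log2 fold change was 0.79 ± 0.30 (SE, n = 3 per group, limma adjusted p = 0.556). Leaving out replicate 2 gave 0.46 ± 0.19.

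Mrpl28, the counterpart of bacterial L28, was at 45.79, 89.70 and 53.98 RPKM in Irf3KO while the wild type had 38.21, 33.34 and 40.90 RPKM (log2 fold change 0.68 ± 0.27). Mrpl20, the counterpart of L20, was at 47.52, 83.39 and 49.13 RPKM against 41.19, 35.19 and 35.39 RPKM (0.63 ± 0.25). For both genes the groups did not overlap, and the adjusted p was 0.556. Without replicate 2 the fold changes were 0.40 ± 0.17 and 0.37 ± 0.15.

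Of the 45 Mrpl genes 5 had a fold change below 0, and among these only Mrpl9 and Mrpl22 had groups that did not overlap. Mrpl9, the counterpart of bacterial L9, was at 14.23, 13.21 and 12.09 RPKM in Irf3KO while the wild type had 15.09, 18.78 and 21.63 RPKM. Mrpl22, whose bacterial counterpart lines the exit tunnel of the new protein chain, was at 9.30, 9.35 and 8.51 RPKM against 10.37, 11.28 and 11.80 RPKM. In both genes every knockout library lay below every wild-type library, and replicate 2 did not stand out. The log2 fold changes were -0.45 ± 0.20 and -0.27 ± 0.17 (limma adjusted p = 0.556 for each), and -0.45 ± 0.18 and -0.29 ± 0.13 without replicate 2.

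The other members with the smallest p among values below 0 overlapped between groups. Mrps10 (1.38 to 2.02 RPKM in Irf3KO, 1.78 to 2.35 in the wild type), Mrpl27 (8.48 to 15.92 against 14.41 to 16.40) and Mrpl24 (11.35 to 17.12 against 15.90 to 17.71) each had their lowest value in Irf3KO replicate 2. Their log2 fold changes were -0.19 ± 0.18, -0.26 ± 0.25 and -0.20 ± 0.20 (limma adjusted p = 0.624, 0.625 and 0.646). Without that library they were -0.09 ± 0.14, -0.00 ± 0.13 and -0.03 ± 0.13, so the values of Mrpl27 and Mrpl24 rested on it almost wholly.

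**Figure D3:**
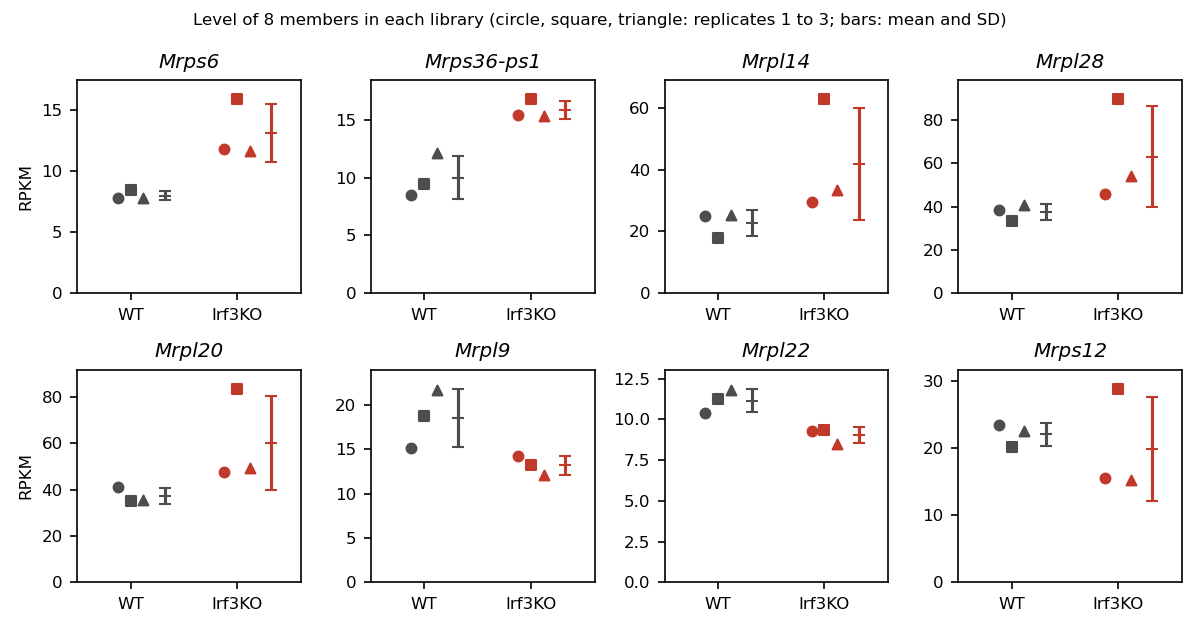
RPKM of 8 members in each library, with mean and SD (n = 3) beside the points. Mrps6, Mrps36-ps1, Mrpl14, Mrpl28 and Mrpl20 are higher and Mrpl9 and Mrpl22 lower in all Irf3KO libraries, while Mrps12 is lower in replicates 1 and 3 (15.60 and 15.17 RPKM) and higher in replicate 2 (28.81 RPKM).

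The levels of the members covered a wide range. The mean over the 6 libraries ran from 1.92 RPKM for Mrps10 to 109.8 RPKM for Mrpl42, with a median of 15.9 RPKM; 10 rows lay under 5 RPKM and 6 at 50 RPKM or more. The highest were Mrpl42, Mrpl52, Mrps23 and Mrpl34. Mrpl42, a mitochondria-specific protein, was at 111.54, 170.42 and 102.47 RPKM in Irf3KO and 67.84, 90.65 and 115.87 RPKM in the wild type, and Mrpl52 at 84.82, 97.55 and 74.79 against 98.61, 71.46 and 67.32 RPKM. Both overlapped between groups (log2 fold changes 0.48 ± 0.29 and 0.13 ± 0.23), and their own ranges overlapped each other. Mrpl34, the counterpart of bacterial L34, was at 46.43, 103.88 and 56.49 against 43.44, 38.34 and 51.19 RPKM (0.55 ± 0.31). Without Irf3KO replicate 2 these values were 0.26 ± 0.25 for Mrpl42, 0.03 ± 0.22 for Mrpl52 and 0.21 ± 0.19 for Mrpl34. The lowest, besides Mrps10, were Mrps5 (3.52, 4.28 and 3.52 RPKM in Irf3KO, 2.79, 3.49 and 3.36 in the wild type), Mrps36-ps2 and Mrps36, which overlapped each other in level. These levels depend on the gene length used by the authors: it exceeded the longest GENCODE transcript by more than 1.5 times in 14 members and fell short of it by more than that in 12. For Mrps10 the lengths were 8079 and 4090 bases and for Mrpl42 666 and 3277 bases, so the order of levels between members is that of the deposited lengths as well as of the reads.

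The pseudogene rows need care because each is nearly identical to a working gene. Mrps36-ps1 and Mrps36-ps2 matched the coding part of Mrps36 over 306 and 309 bases at 99.3% and 99.0% identity, and Mrpl48-ps matched Mrpl48 at 98.1%. Mrpl23-ps1 matched Mrpl23 at 100% over 540 bases. Mrpl23 itself had no row under that symbol, so the Mrpl23-ps1 row may hold reads of either. The sources used here do not state how reads that fit several places were handled, and reads of a gene and its copy may have been exchanged. A stretch of the Mrps36 transcript and of both copies (GENCODE M21 transcripts, bases 37 to 96 counted from 1 at the first aligned base) shows how little separates them. Capitals mark the positions at which a copy differs from Mrps36.
Mrps36: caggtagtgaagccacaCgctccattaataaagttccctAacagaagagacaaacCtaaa
Mrps36-ps1: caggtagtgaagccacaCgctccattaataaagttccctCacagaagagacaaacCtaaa
Mrps36-ps2: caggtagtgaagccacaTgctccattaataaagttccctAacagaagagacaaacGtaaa

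Written with the base of Mrps36 first, Mrps36-ps1 differed at A76C and C128T, and Mrps36-ps2 at C54T, C92G and C292T. Mrps36-ps1 had the second smallest p among the members, at 15.47, 16.81 and 15.37 RPKM in Irf3KO and 8.48, 9.47 and 12.11 RPKM in the wild type (log2 fold change 0.63 ± 0.19, SE, n = 3 per group, limma adjusted p = 0.436; 0.59 ± 0.17 without Irf3KO replicate 2). Mrps36 was at 3.34, 5.55 and 4.40 against 3.41, 2.91 and 3 RPKM (0.38 ± 0.21), and Mrps36-ps2 at 2.63, 5.73 and 4.81 against 2.74, 3.74 and 2.88 RPKM (0.35 ± 0.26), and both overlapped between groups. Without Irf3KO replicate 2 they were at 0.24 ± 0.15 and 0.16 ± 0.22. Taking the 3 rows together sets aside exchange of reads among them, but not reads that were dropped or placed elsewhere. Together they held 14.7, 19.3 and 16.7 RPM (reads scaled to library depth) in the Irf3KO libraries and 10.5, 10.8 and 12.3 in the wild type, with no overlap. Mrps36-ps1 took 54.3% to 65.6% of these reads in Irf3KO and 50.5% to 61.6% in the wild type. Mrpl23-ps1 stood at 37.82, 37.04 and 35.87 RPKM in Irf3KO and 28.20, 25.77 and 28.24 RPKM in the wild type with no overlap (0.42 ± 0.17, adjusted p = 0.556). Mrpl48 and Mrpl48-ps together held 40.3, 32.7 and 37.7 RPM against 34.9, 32.3 and 32.9, where the ranges overlapped.

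How far Irf3KO replicate 2 stood from the other knockout libraries differed from member to member. It was the highest of the 6 libraries for 54 of the 78 rows and the lowest for 6. In that library 25 rows (32.1%) stood more than 0.5 (log2) above the mean of Irf3KO replicates 1 and 3, where 12.9% of all genes did, and 1 row (1.28%), Mrpl27, stood more than 0.5 below it, where 38.0% of all genes did. Mrps34 was farthest above them, at 12.75 RPKM in replicate 2 and 3.67 and 4.76 RPKM in the other knockout libraries, beside 4.11, 3.03 and 3.58 RPKM in the wild type. Without replicate 2 its log2 fold change went from 0.66 ± 0.38 to 0.19 ± 0.16.

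This departure varied with the base composition of the transcripts. Of the 74 protein-coding members, the 24 that stood more than 0.5 above had a median GC content of 55.1%, the 7 that stood more than 0.25 below had 47.1%, and the 43 between had 47.5%. Across the 74 protein-coding members, GC content and the departure had a Pearson correlation of 0.48 (Spearman 0.44), and across 11686 genes tested with a known GC content it was 0.56 (0.59). For the fold change between Irf3KO replicates 1 and 3 and the wild type the correlation over the members was 0.06 (0.08). Deposited length and the departure had a correlation of -0.25 over the members (-0.28 over all genes tested). These correlations are across genes of the same libraries and describe them only. The part of base composition in the fold changes that include replicate 2 was not tested.

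**Figure D4:**
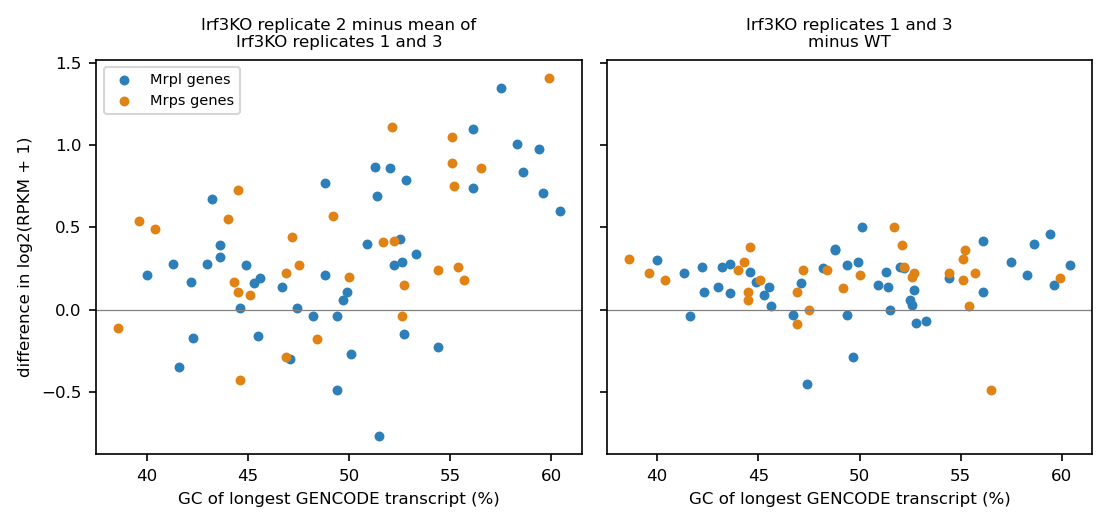
Each point is 1 of the 74 protein-coding members, by the GC content of its longest GENCODE transcript. The left panel plots Irf3KO replicate 2 minus the mean of Irf3KO replicates 1 and 3 (Pearson 0.48), and the right panel the fold change of those replicates against the wild type (Pearson 0.06), both on log2(RPKM + 1).

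Marker RNA of the cell types in the infarct also varied between libraries. In a bulk sample fewer cells of a type and less RNA per cell cannot be told apart. All 22 cardiomyocyte markers were read in all 6 libraries, and their median relative to the wild-type mean was 0.31, 0.98 and 0.53 in Irf3KO replicates 1 to 3 and -0.80, 0.17 and 0.76 in the wild type, with summed levels of 19630 to 31460 RPKM against 9028 to 24970 RPKM. For the 16 macrophage markers the medians were 0.12, -1.27 and -0.22 in Irf3KO and 0.49, -0.22 and -0.26 in the wild type, with summed levels of 2245 to 5848 RPKM against 3442 to 6271 RPKM. The 15 fibroblast markers stood at -0.32, -0.97 and -0.22 against 0.02, 0.07 and -0.14 (4970 to 7000 RPKM summed, against 7882 to 8960 RPKM). Their medians and sums were thus lower in every Irf3KO library than in every wild-type library. Of the 15, 1 had a fold change above 0 (40.7% of all genes tested). In 8 every Irf3KO library lay below every wild-type library (11.8% of all genes), and none was called (0.503% of all genes). No marker of these lists was at 0 in any library. Within each genotype the libraries had the same order by cardiomyocyte marker median and by median of the mitochondrial ribosomal rows. Between genotypes the order by cardiomyocyte markers and by rows differed in part. Wild-type replicate 3 stood at 0.76 for these markers and 0.08 for the rows. Irf3KO replicates 1 and 3 stood at 0.31 and 0.53 for these markers and 0.17 and 0.21 for the rows. The part of these marker differences in the levels of the members was not tested.

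Respiratory chain genes, whose mitochondrial partners these ribosomes make, varied more. The median log2 fold change of 78 nuclear-encoded subunits of the respiratory chain and ATP synthase was 0.60, and 0.31 without Irf3KO replicate 2. Of them 77 were above 0 (40.7% of all genes tested) and none was called (0.503% of all genes). An unadjusted limma p under 0.05 was reached by 10, or 12.8%, beside 8.4% of all genes. Without Irf3KO replicate 2 it was reached by 2, or 2.56%, beside 7.79% of all genes. Set against the wild-type mean, their medians stood at 0.25, 1.07 and 0.38 in Irf3KO and -0.30, -0.07 and 0.36 in the wild type, so wild-type replicate 3 lay above Irf3KO replicate 1. Atp5k, a subunit of ATP synthase, had the smallest p of them, at 195.54, 454.30 and 210.52 against 111.53, 122.61 and 160.39 RPKM (1.03 ± 0.36, limma adjusted p = 0.523; 0.64 ± 0.23 without Irf3KO replicate 2), followed by Ndufs8 of complex I (0.76 ± 0.28, adjusted p = 0.556), and in both the knockout libraries all lay above the wild type. Of these subunits 14 lay fully above the wild type, 17.9%, beside 25 of the 78 mitochondrial ribosomal rows and 6.61% of all genes tested. The median SD between wild-type libraries was 0.33 on the log2 scale for the respiratory subunits, 0.25 for cytosolic ribosomal proteins, 0.14 for the mitochondrial ribosomal rows and 0.18 for all genes tested. The summed RPKM of the mitochondrial ribosomal rows was 0.124, 0.0869 and 0.113 of that of the respiratory subunits in Irf3KO and 0.158, 0.132 and 0.107 of it in the wild type, overlapping ranges.

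Proteins of the cytosolic ribosome, which translates nuclear messages including those of the members, did not follow the same order. Their median log2 fold change over 78 genes was 0.14, and 0.11 without Irf3KO replicate 2. Of them 55, or 70.5%, were above 0, where 40.7% of all genes tested were. In 4 genes every Irf3KO library lay above every wild-type library (6.61% of all genes), and in 8 every one lay below (11.8%). None was called higher (0.147% of all genes) and 2 were called lower (0.356%). The list medians per library were 0.17, 0.16 and 0.09 in Irf3KO and 0.28, -0.12 and -0.18 in the wild type, where wild-type replicate 1 was the highest of all. Rpl29, at 0.25, 1.04 and 0.87 RPKM in Irf3KO against 104.88, 82.13 and 71.53 RPKM, and Rps3a, at 5.12, 3.51 and 3.62 against 133.54, 109.70 and 98.13 RPKM, were called lower (log2 fold changes -5.68 ± 0.25 and -4.50 ± 0.21, limma adjusted p = 4.4e-05 and 5.4e-05). Cytosolic ribosomal protein genes have many near-identical copies in the genome, so the values of single genes of this list are uncertain.

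**Figure D5:**
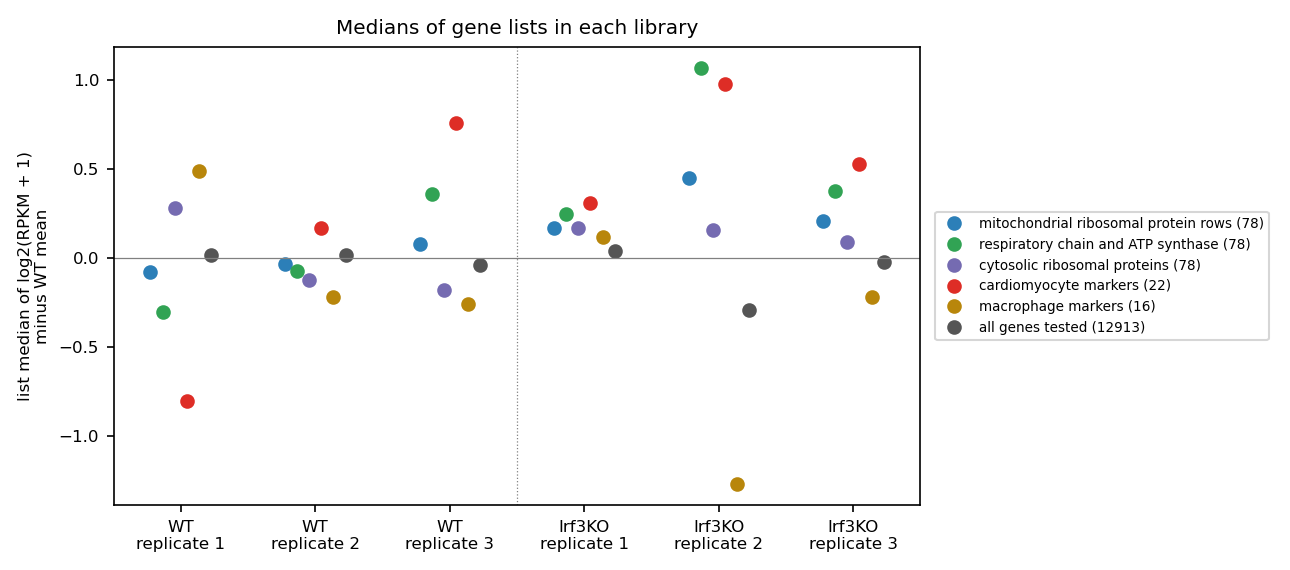
Median of each gene list in each library, as log2(RPKM + 1) minus the wild-type mean. The mitochondrial ribosomal rows move from -0.08 to 0.08 in the wild type and 0.17 to 0.45 in Irf3KO, within a narrower range than cardiomyocyte markers (-0.80 to 0.98) or respiratory subunits (-0.30 to 1.07).

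The remaining machinery of mitochondrial translation was read from lists set beside the members. Of 7 mitochondrial ribosomal proteins with other symbols, 6 had values above 0 (median 0.34), 4 of them with all knockout libraries above the wild type, and none was called. Over all genes tested, 40.7% were above 0, 6.61% had all knockout libraries above the wild type and 0.503% were called. The same shares stand beside the lists that follow. Aurkaip1, a small subunit protein, was at 36.90, 55.69 and 37.47 against 32.81, 25.61 and 29.97 RPKM (log2 fold change 0.52 ± 0.22), and Chchd1, another, at 70.36, 140.14 and 60.28 against 58.66, 50.97 and 54.62 RPKM (0.61 ± 0.32; limma adjusted p = 0.556 for both). Without Irf3KO replicate 2 they were at 0.33 ± 0.16 and 0.25 ± 0.16. Of 23 genes of mitochondrial ribosome assembly and RNA modification, 18 were above 0 (median 0.23) and none was called. Mrm1, a methyltransferase of the large ribosomal RNA, was at 6.34, 7.19 and 6.88 against 4.36, 4.61 and 5.21 RPKM (0.45 ± 0.18), and Ngrn, needed for assembly of the large subunit, at 13.34, 12.23 and 13.07 against 10.08, 9.88 and 9.74 RPKM (0.35 ± 0.17; adjusted p = 0.556 for both). In both genes replicate 2 did not stand out and the groups did not overlap.

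Translation factors went in both directions. Of 14 tested, 8 were above 0 and 6 below (median 0.11), and none was called. Tufm, which delivers charged tRNA to the ribosome, was at 13.89, 31.25 and 15.57 RPKM in Irf3KO and 8.83, 10.56 and 12.54 RPKM in the wild type (log2 fold change 0.79 ± 0.31). Mtif2, which starts translation, was at 7.41, 3.07 and 5.18 against 7.31, 10.24 and 10.69 RPKM (-0.79 ± 0.29), with wild-type replicate 1 just below the highest knockout library. The limma adjusted p was 0.556 for both, and without Irf3KO replicate 2 they were at 0.44 ± 0.17 and -0.51 ± 0.21. Of 20 genes for charging mitochondrial tRNAs 14 were above 0 (median 0.18), with Sars2 (0.61 ± 0.27) and Fars2 (0.39 ± 0.20) the smallest p; Sars2 was at 0.32 ± 0.15 without Irf3KO replicate 2. Lars2, of the same list, stood at 6373.9 RPKM in Irf3KO replicate 2 and at 338.48 to 1793.99 RPKM in the other libraries (1.09 ± 0.89, and 0.14 ± 0.68 without replicate 2). Its mean over the libraries was 1859 RPKM, where the next highest gene of that list, Fars2, had 15.31 RPKM. Whether all reads of the Lars2 row came from its messenger RNA was not tested. Of 15 genes for mitochondrial DNA upkeep, transcription and its regulators 8 were above 0 and the median was 0.00. Peo1, the mitochondrial DNA helicase, stood at 0.32 ± 0.18, and Esrra, a nuclear receptor that drives mitochondrial genes, at 0.60 ± 0.36 with 79.17 RPKM in replicate 2 and 29.18 and 39.32 RPKM in the other knockout libraries (0.20 ± 0.23 without replicate 2). None of these genes was called.

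Neighbours and promoters of the members were described from annotation. Of the 74 protein-coding members, 18 (24.3%) had a divergent protein-coding partner starting within 1000 bases on the opposite strand, which 10.5% of 10721 protein-coding genes of the table had. Partners included Sars2 (Mrps12), Ndufs6, a subunit of respiratory complex I (Mrpl36), Psma2, a proteasome subunit (Mrpl32), and Mitd1 (Mrpl30). Mitd1 was lower in all knockout libraries, at 3.60, 1.38 and 2.33 against 4.52, 4.62 and 3.84 RPKM, where Mrpl30 was at 38.45, 38.72 and 38.59 against 27.68, 31.25 and 40.13 RPKM. Exons of 26 members overlapped a gene on the opposite strand, among them Mrpl14 (Tmem63b), Mrpl9 (Oaz3) and Mrpl46 with Mrps11, which overlap each other. The sources used here do not state whether counting used strand, and reads in such overlaps cannot be told apart. Tmem63b, an ion channel gene, was at 13.39, 27.61 and 15.69 against 7.81, 11.70 and 12.67 RPKM, with no overlap and with replicate 2 the highest, as for Mrpl14.

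Sequence before the start site was taken from RefSeq (GRCm38.p6), which matched 65 of the 78 members; the expression files use the older build mm9, so these coordinates belong to the RefSeq table. In the 250 bases before the start, the NRF1 motif gcatgcgc, bound by a regulator of nuclear genes for mitochondria, was present on either strand in 8 of 65 member promoters (12.3%) and in 4.68% of 8608 promoters of genes in the table. The ETS motif ccggaag, bound among others by GABP, was in 15 (23.1%, against 13.8%), the YY1 motif aagatggcg in 2 (3.08%, against 1.17%), the E-box cacgtg in 5 (7.69%, against 8.6%) and the IRF motif gaaanngaa in 7 (10.8%, against 6.35%). Over all 27025 RefSeq promoters the shares were 2.32%, 7.05%, 0.607%, 6.05% and 7.16%. The NRF1 motif can match both strands at an overlapping place, which was counted once per promoter.

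The promoters of the members with the smallest p in each direction among those matched are shown. Mrps6, Mrpl14 and Mrpl28 were higher in all knockout libraries, Mrpl9 and Mrpl22 were lower in all of them, and the groups of Mrps10 overlapped. All lie on the plus strand, and capitals mark motif matches.
Mrps6, chr16:92058086-92058335: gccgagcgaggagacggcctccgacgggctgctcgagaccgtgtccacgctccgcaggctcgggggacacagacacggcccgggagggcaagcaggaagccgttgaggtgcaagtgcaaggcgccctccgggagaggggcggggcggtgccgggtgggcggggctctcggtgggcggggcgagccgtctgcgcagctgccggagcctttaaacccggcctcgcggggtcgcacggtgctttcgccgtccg
Mrpl14, chr17:45686099-45686348: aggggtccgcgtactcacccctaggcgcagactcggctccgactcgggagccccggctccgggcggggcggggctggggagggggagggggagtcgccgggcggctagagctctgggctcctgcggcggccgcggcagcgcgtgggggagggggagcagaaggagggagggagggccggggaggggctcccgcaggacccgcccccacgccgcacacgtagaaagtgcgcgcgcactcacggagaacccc
Mrpl28, chr17:26123253-26123502: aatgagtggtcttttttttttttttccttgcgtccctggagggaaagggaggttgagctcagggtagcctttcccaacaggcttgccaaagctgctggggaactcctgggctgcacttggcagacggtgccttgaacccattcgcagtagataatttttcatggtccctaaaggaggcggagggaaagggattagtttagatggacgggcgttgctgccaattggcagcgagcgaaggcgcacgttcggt
Mrpl9, chr3:94443086-94443335: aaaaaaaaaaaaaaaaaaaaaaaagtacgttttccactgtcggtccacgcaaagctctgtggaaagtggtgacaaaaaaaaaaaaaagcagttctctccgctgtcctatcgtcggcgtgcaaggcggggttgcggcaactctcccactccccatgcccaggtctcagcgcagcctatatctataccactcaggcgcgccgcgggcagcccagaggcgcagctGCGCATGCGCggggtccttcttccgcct
Mrpl22, chr11:58171414-58171663: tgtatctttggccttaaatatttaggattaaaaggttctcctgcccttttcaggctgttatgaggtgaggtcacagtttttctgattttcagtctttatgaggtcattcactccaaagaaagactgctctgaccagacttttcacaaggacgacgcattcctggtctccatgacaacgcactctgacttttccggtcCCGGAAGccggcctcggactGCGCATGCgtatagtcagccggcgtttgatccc
Mrps10, chr17:47368947-47369196: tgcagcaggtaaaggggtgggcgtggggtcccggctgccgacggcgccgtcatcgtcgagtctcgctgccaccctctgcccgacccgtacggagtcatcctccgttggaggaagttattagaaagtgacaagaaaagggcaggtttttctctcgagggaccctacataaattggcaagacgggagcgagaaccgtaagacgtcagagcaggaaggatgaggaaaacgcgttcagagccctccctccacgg

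Mrpl9 held the NRF1 motif on both strands, its matches beginning 28 and 26 bases before the start, and Mrpl22 held an ETS motif at 53 bases and an NRF1 motif at 33 bases before the start. The other members with the NRF1 motif, Mrpl10, Mrpl17, Mrpl32, Mrpl33, Mrpl39 and Mrps18b, all had positive fold changes over all libraries, as had 71 of the 78 members. Without Irf3KO replicate 2 Mrpl33 went from 0.02 ± 0.18 to -0.03 ± 0.14 and Mrpl10 from 0.20 ± 0.20 to 0.06 ± 0.14. The rest of these genes stayed positive. The ETS motif was in members of both directions, among them Mrps18a and Mrpl34 with positive and Mrpl27 with negative fold changes. In the windows of Mrps6, Mrpl14, Mrpl28 and Mrps10 none of the 5 motifs was found, which says only that these letters are not in these windows. The IRF motif was found in Mrpl3, Mrpl20, Mrpl55, Mrps18a, Mrps18c, Mrps21 and Mrps31. Among these, Mrpl20, Mrps18a and Mrps21 were higher in all knockout libraries, and the groups of the others overlapped. Of all 78 members 25 (32.1%) were higher in all knockout libraries, and of all genes tested 6.61%. A relation between the motif and the direction was not tested.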

How the data were processed

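Total RNA of 6 infarct samples was sequenced. The authors deposited RPKM with 2 decimals and a length per gene for 12969 genes. STAR 2.3.0, HTSeq 0.6.0, edgeR 3.8.6, SAMtools 0.1.18.0 and Picard 1.100 were used on build mm9 (NCBIM37), per the submitters' processing notes. The sources used here do not state their settings, the strand or the treatment of multiple mapping.

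RPKM was taken to log2(RPKM + 1), genes averaging 1 RPKM or more were kept (12913), and genotypes were compared with limma 3.58.1 (lmFit, eBayes with trend) in R 4.3.3, with Benjamini-Hochberg adjustment over all of them. Fold changes are on that scale and understate changes of low genes. Depth was read from the steps of low values times length, where 100% of the values used lay within 0.2 reads of a whole number. The fit and the depth estimate were checked on simulated data. The changes simulated for the fit were larger than that of any member, so the check does not tell whether changes as small as theirs would be called.

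Named genes are the 5 smallest p in each direction, the 4 highest and 4 lowest levels, the Mrps18 copies, Mrps36, Irf3 and 2 genes per related list. Members and lists were chosen with earlier results of these data known. Sequences and neighbours come from RefSeq (GRCm38.p6) and GENCODE M21 by symbol.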

Additional observations from a re-analysis of the deposited data

How the results depend on the processing

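None of the 78 mitochondrial ribosomal rows was called under any alternative that was run, and the smallest adjusted p among them ranged from 0.248 to 0.876 (limma). Their median log2 fold change ranged from 0.21 without Irf3KO replicate 2 to 0.41 with median-of-ratios scaling, which moved the median of all genes from -0.09 to 0.02, and it was 0.28 without the pseudogene rows and Mrps36, an alternative chosen after seeing the data, as was counting separated groups without Irf3KO replicate 2. None of 236 recomputed values of 20 named members changed sign or passed the threshold, which none had passed to begin with. Many of them were named for a small p in these data, so this does not show stable directions across the family. Over all 78 rows, 71 were above 0 with all libraries and 68 without Irf3KO replicate 2. Among members not named, Mrpl55 went from 0.18 to -0.08 and Mrpl21 from 0.04 to -0.07 without that library. Sizes of named members moved too: without it Mrpl27 went from -0.26 to -0.00 and Mrpl24 from -0.20 to -0.03. The number of genes called over the whole table was 65, and 34 with a minimum mean of 5 RPKM, which left 68 members. Leaving out 1 library at a time gave 21 to 96. Replicate numbers did not pair the samples (correlations of same-numbered deviations 0.13, -0.1 and -0.1), and the fit with a replicate block called 250 genes and no member. Array weights did not converge and were not run. Depth limits the lowest rows most: Mrps36-ps2 held 12 reads in its shallowest library.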
